A study of Arabidopsis thaliana with 28 samples.

Results

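The comparison described here sets seedlings of the Arabidopsis thaliana ecotype Col-0 collected after 6 h of abscisic acid (ABA_6h) against seedlings collected after 6 h of an ethanol mock (EtOH_6h). Both groups are wild type. They are 4 of the 28 libraries of a time course at 0.5, 1, 3, 6, 9, 12 and 24 h, with 2 libraries for each treatment at each time. RNA of whole seedlings was sequenced. The sources used here give neither the ABA dose nor the age of the seedlings, nor whether the 2 libraries of a group came from separate cultures. Values are the authors' pooled FPKM (fragments scaled to transcript length and library size), 1 per gene and group. No value therefore has a replicate error, and no test of ABA against mock was possible at a single time. A gene is called higher or lower where the authors' deposited table marks it as significant, and the verbs rose and fell are kept for such genes. The test behind that mark is not given in the sources used here. An effect is the difference of log2(FPKM + 1), ABA minus mock. It was computed for the 20034 of 33557 entries that reached 1 FPKM in at least 2 of the 14 pools.

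ABA is the hormone that lets plants hold water under drought and cold and keeps seeds dormant. It binds receptors of the PYR/PYL family, which then block the clade A PP2C phosphatases. SnRK2 kinases, freed from these phosphatases, phosphorylate ABF/ABI transcription factors, which switch on genes for protective proteins, waxes and stress metabolism. In a seedling the response is known for slowing growth and photosynthesis and for opposing salicylate-dependent defence. The 6 h samples were read for which genes differed from mock and for how this set differed from that at 3 h.

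The 4 pools of 6 h and 3 h held 18664 to 18831 genes with at least 1 FPKM. The smallest steps between low values implied about 4.32e+07 fragments in the ABA pool and 3.73e+07 in the mock pool at 6 h, an approximate figure. Markers of the tissue were present at 6 h. The 6 green leaf markers summed to 16711 FPKM under ABA and 23861 FPKM in mock, and 4 of them were called lower (calls of the authors' deposited table). Of 12 root markers, 11 passed the filter, with 5 called higher and 1 lower (calls of the authors' deposited table), and they summed to 1015 FPKM under ABA and 1694 FPKM in mock. The shares called over all genes at 6 h were 22.2% higher and 21.4% lower. None of the markers of the 3 lists was listed at 0 in both pools. The 7 guard cell markers summed to 73.7 FPKM under ABA and 290.2 FPKM in mock, most of it from GC1, a guard cell gene (AT1G22690) with 37.2 FPKM under ABA and 250.4 FPKM in mock. Of the 7, 1 was called higher and 2 lower (calls of the authors' deposited table), with effects from -2.72 to 2.31. Such sums follow the highest members and need not go the way of the list. In whole seedlings, fewer cells of a type and less RNA per cell cannot be told apart.

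At 6 h, the authors' deposited table called 4443 of the 20034 genes higher under ABA (22.2%) and 4292 lower (21.4%). On the effect scale, 1832 genes were at least 2-fold higher (9.14%) and 1446 at least 2-fold lower (7.22%). The upper tail was the longer one. Among the genes called by the authors' deposited table, 191 had effects of at least 3 and 39 of at least 5, whereas 81 had effects of -3 or below and 2 of -5 or below. For the genes marked in the authors' deposited table, the median absolute effect was 0.78, less than a doubling, with quartiles of 0.57 and 1.17. Conversely, 323 genes at least 2-fold apart were left without a mark in the authors' deposited table, and their median level over both pools was 2.39 FPKM. Strongly different genes without a mark in the authors' deposited table include the lipid transfer gene LTP4, with 1832 FPKM under ABA and 0.177 FPKM in mock.

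Genes for proteins of drying seeds and cold-stressed leaves made up most of the 12 largest rises at 6 h. RD29B, a hydrophilic stress protein, had 664 FPKM under ABA and 0.422 FPKM in mock. LEA7, a late embryogenesis abundant (LEA) protein of the kind that shields other proteins during drying, had 2160.4 FPKM under ABA and 4.78 FPKM in mock. TSPO, a stress-induced membrane protein that binds porphyrins, had 507 FPKM under ABA and 0.492 FPKM in mock. Their effects were 8.87, 8.55 and 8.41, each called at all 7 times (calls of the authors' deposited table). Another 4 LEA-type genes stood beside them: LEA4-5, the dehydrin RAB18, AT3G17520 and AT3G02480. RAB18 had 2636 FPKM under ABA and 8.13 FPKM in mock. AT3G02480 reached 12559 FPKM under ABA, against 49.96 FPKM in mock, the highest level among the 12. The chloroplast cryoprotectant COR15A had 7894 FPKM under ABA and 23.2 FPKM in mock, and the caleosin RD20, an oil body protein, 831 FPKM under ABA and 1.71 FPKM in mock. The cold-regulated AT3G03341 and the lipid transfer proteins AT2G37870 and LTP3 completed the group, with effects of 7.75, 8.22 and 7.58. For all 12 the mock level stayed at or under 49.96 FPKM, while the lowest level under ABA was 402 FPKM. LTP3 and LTP4, like COR15A and COR15B or KIN1 and KIN2, are neighbouring near-copies, and reads shared between them make the single values uncertain.

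The 12 largest falls at 6 h included a cluster of 4 neighbouring genes for proline-rich lipid transfer proteins. EARLI1, the largest fall, had 7.80 FPKM under ABA and 715 FPKM in mock, and AZI1, which takes part in systemic immunity, 33.0 FPKM under ABA and 872 FPKM in mock. AT4G12490 and AT4G12500 had 1.66 and 0.308 FPKM under ABA, against 82.4 and 28.9 FPKM in mock. The 4 copies resemble each other and lie side by side, so their single values are uncertain as well. PYL4, an ABA receptor, had 6.59 FPKM under ABA and 219 FPKM in mock, an effect of -4.85. TCH3, a calmodulin-like calcium sensor first found as touch-induced, had 6.54 FPKM under ABA and 198 FPKM in mock. MAM3, which elongates the side chains of aliphatic glucosinolates, had 3.21 FPKM under ABA and 102 FPKM in mock. The others were the legume lectin AT3G16530 (effect -4.87), the peroxidase AT5G64120 (-4.72), the methyltransferase AT1G15125 (-4.83), the bHLH factor AT2G43140 (-4.51) and AT1G27020 (-5.91). No gene of this group exceeded 33.0 FPKM under ABA, and none was below 26.9 FPKM in mock. Of the 55 genes named by rule, 17 overlap another annotated gene, LEA7, RAB18, EARLI1 and TCH3 among them. Whether the libraries kept the strand is not given in the sources used here, so reads of such pairs cannot be told apart.

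**Figure D1:**
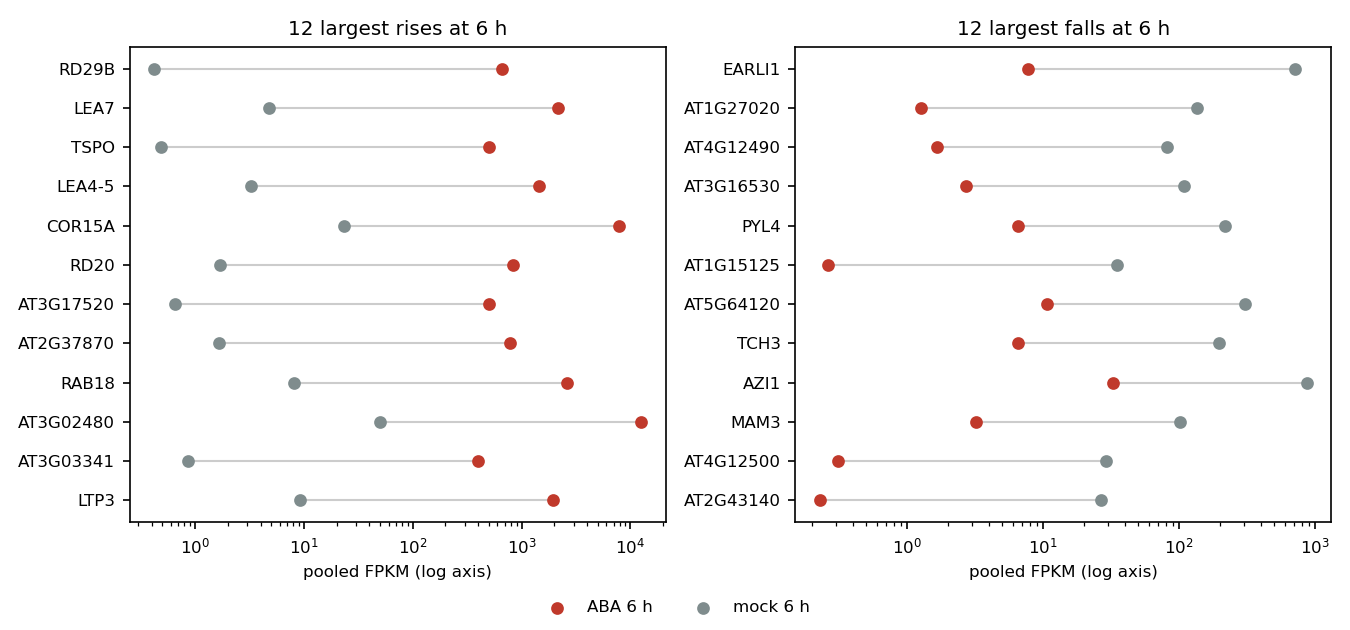
Pooled FPKM at 6 h (log axis) of the 12 largest rises (left panel) and 12 largest falls (right panel), with ABA in red and mock in grey and 1 pool per point. The ABA levels of the rises lie between 402 and 12559 FPKM and those of the falls at or below 33.0 FPKM.

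Promoters of these genes were read from the RefSeq TAIR10.1 assembly, from 250 bases before to 50 bases after the annotated gene start, for the genes the account turns on. RD29B and RAB18 stand for the largest rises, PYL4 and EARLI1 for the largest falls, and SEN1 and CML37 for the genes described further on whose direction at 6 h was opposite to that at 3 h. Capitals mark matches on either strand to ACGTG, the core of the ABA-responsive element that ABF factors bind, CACGTG, which contains it, CCGAC, the core of the element bound by DREB/CBF factors, TTGAC, the core of the W-box bound by WRKY factors, AAAATATCT, the evening element of the circadian clock, and TATCTA, which can share bases with the evening element.
RD29B (chr5:21236771-21237070, plus strand): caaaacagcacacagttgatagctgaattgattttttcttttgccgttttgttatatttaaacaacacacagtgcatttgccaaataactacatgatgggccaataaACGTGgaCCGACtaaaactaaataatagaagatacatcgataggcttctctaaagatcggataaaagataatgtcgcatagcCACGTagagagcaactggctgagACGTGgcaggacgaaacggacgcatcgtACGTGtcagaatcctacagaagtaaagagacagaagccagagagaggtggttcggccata
RAB18 (chr5:26519398-26519697, minus strand): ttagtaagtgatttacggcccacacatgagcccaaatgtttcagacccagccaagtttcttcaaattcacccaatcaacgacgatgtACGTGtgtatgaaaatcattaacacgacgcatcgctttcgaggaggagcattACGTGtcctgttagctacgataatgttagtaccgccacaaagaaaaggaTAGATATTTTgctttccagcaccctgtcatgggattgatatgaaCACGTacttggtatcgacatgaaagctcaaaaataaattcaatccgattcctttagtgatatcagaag
PYL4 (chr2:16049668-16049967, plus strand): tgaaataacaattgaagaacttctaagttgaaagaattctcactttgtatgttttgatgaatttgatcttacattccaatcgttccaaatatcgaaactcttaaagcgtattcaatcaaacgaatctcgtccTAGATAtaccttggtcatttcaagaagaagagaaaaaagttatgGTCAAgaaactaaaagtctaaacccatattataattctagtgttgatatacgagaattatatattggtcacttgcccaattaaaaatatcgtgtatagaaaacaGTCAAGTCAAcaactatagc
EARLI1 (chr4:7406945-7407244, minus strand): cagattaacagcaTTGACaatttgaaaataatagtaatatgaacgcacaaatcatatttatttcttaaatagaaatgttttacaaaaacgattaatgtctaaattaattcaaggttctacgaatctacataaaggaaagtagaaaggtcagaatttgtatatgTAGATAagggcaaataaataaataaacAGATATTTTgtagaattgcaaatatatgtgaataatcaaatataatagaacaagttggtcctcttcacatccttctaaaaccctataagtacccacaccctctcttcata
SEN1 (chr4:16944628-16944927, plus strand): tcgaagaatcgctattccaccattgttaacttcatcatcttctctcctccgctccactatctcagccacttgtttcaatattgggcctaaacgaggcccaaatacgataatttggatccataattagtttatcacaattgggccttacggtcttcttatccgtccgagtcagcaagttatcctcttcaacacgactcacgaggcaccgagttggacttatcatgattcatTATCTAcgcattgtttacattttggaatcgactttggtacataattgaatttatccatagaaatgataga
CML37 (chr5:16943771-16944070, minus strand): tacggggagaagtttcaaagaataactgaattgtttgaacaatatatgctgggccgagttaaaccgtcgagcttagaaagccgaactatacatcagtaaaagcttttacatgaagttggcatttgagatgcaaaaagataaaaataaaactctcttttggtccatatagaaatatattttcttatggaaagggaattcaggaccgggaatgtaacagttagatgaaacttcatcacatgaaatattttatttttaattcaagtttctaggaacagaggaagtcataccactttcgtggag

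RD29B held ACGTG 4 times and CCGAC once, and RAB18 held ACGTG 3 times with 1 evening element. PYL4 held TTGAC 3 times and EARLI1 once, both without ACGTG. EARLI1 also held 1 evening element, and RAB18, PYL4 and EARLI1 each held 1 TATCTA. SEN1 held 1 TATCTA, and no match to any of the 6 motifs was found in the window of CML37. The contrast of ACGTG and TTGAC between rises and falls appeared over larger groups as well. ACGTG was in 67 of the promoters of the 100 largest called rises (67%; exact 95% interval 56.9 to 76.1%). It was in 25 of those of the 100 largest called falls (25%; 16.9 to 34.7%). Among all 37897 promoters of that length its share was 24.6%, and among those of genes passing the filter 28.5%. CACGTG was in 39% of the rises and 5% of the falls, against 6.46% of all promoters, and CCGAC in 30% and 15%, against 15.3%. TTGAC went the other way, with 41% of the rises, 68% of the falls and 49.5% of all promoters. TATCTA was in 34% of the rises and 36% of the falls, against 20.8% of all. AAAATATCT was in 5% (1.64 to 11.3%) and 6% (2.23 to 12.6%), and both intervals include its share of all promoters, 2.49%. Among genes passing the filter, the shares were 9.17% for CACGTG, 16.2% for CCGAC, 50.9% for TTGAC, 21.3% for TATCTA and 3.02% for AAAATATCT. The intervals cover counting error only, and a match is a run of letters, not a site.

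The set of genes affected at 6 h was largely that of 3 h. Effects at 6 h and at 3 h correlated across the 20034 genes with Pearson's r of 0.92 and Spearman's rho of 0.89, and 87.7% of the genes had effects within 0.5 of each other. At 3 h, the authors' deposited table called 4961 genes higher (24.8%) and 4021 lower (20.1%). Of the genes that the authors' deposited table called higher at 6 h, 84.7% were called higher at 3 h as well, and of those called higher at 3 h, 75.8% were called higher at 6 h. For lower genes the shares from the calls of the authors' deposited table were 75.5% of the 6 h set and 80.6% of the 3 h set. New calls at 6 h were more often lower than higher, with 1044 lower and 675 higher (calls of the authors' deposited table). Lost calls showed the reverse, with 1192 genes higher and 774 lower at 3 h that were not called at 6 h (calls of the authors' deposited table). These gained and lost calls came mostly from small effects. Genes called at 6 h and not at 3 h (calls of the authors' deposited table) showed a median absolute effect of 0.56 at 6 h and 0.29 at 3 h. Calls of the authors' deposited table went in opposite directions for 15 genes: 7 higher at 6 h and lower at 3 h, and 8 lower at 6 h and higher at 3 h.

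A change of effect of at least 1 between the times, that is a doubling or halving of the ABA-to-mock ratio, was found in 446 genes. It was positive in 123 genes (0.614%) and negative in 323 (1.61%). The genes were chosen by the ABA change minus the mock change, so the parts below are a description. In the 323 genes the ABA level at 6 h was below that at 3 h by a median of 0.69 on the log2 scale, and the mock level was above it by 0.62. In the 123 genes the ABA level was higher by a median of 0.66 and the mock level lower by 0.63. The mock pools moved more than the ABA pools in 63 of the 123 genes and in 148 of the 323. Median effects of the 123 genes were -0.99 at 3 h, 0.27 at 6 h and 0 at 9 h. Those of the 323 were 0.65 at 3 h, -0.59 at 6 h and -0.28 at 9 h. The median level in the highest of the 4 pools was 9.09 FPKM for the positive group and 9.94 FPKM for the negative group. Over all genes passing the filter, the median was 11.9 FPKM in the ABA pool and 11.2 FPKM in the mock pool of 6 h. The latter are medians of single pools, not of the highest of 4.

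**Figure D2:**
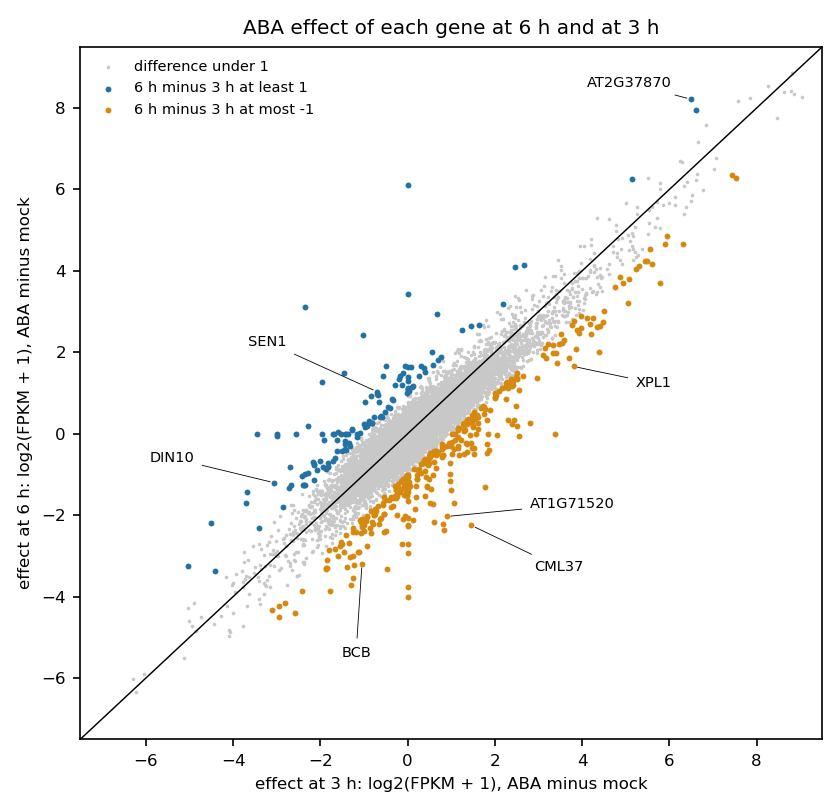
Effect of each of the 20034 genes at 6 h (vertical axis) against that at 3 h (horizontal axis), both as log2(FPKM + 1), ABA minus mock, with the line of equal effects. Blue points are the 123 genes with a difference of at least 1, orange points the 323 with a difference of -1 or below, and 7 genes named in the text are marked.

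Among the 12 largest positive changes were genes known from darkness and low sugar and genes of sulfur supply. DIN10, a raffinose synthase family gene switched on in darkness and low sugar, had 41.5 FPKM under ABA and 97.0 FPKM in mock at 6 h, against 16.1 and 141 FPKM at 3 h. Its effect was -1.20 at 6 h and -3.06 at 3 h, so that the gap to mock narrowed and the gene remained called lower (calls of the authors' deposited table). AT3G15450, an aluminium-induced protein, had, without a call at 6 h in the authors' deposited table, 116 FPKM under ABA and 129 FPKM in mock at 6 h, against 49.0 and 189 FPKM at 3 h. SEN1 (AT4G35770), a senescence gene also induced in the dark, changed sides. It had 23.53 FPKM under ABA and 11.0 FPKM in mock at 6 h, against 21.5 and 35.7 FPKM at 3 h, and most of this lay in the mock pools. AT2G33830, a dormancy- and auxin-associated gene, had 260.0 FPKM under ABA and 113 FPKM in mock at 6 h and 156 and 192 FPKM at 3 h. In the ABA pools APR3, which reduces activated sulfate on the way to cysteine, had 352 FPKM at 6 h and 139.6 FPKM at 3 h. In the mock pools it had 572 and 630.4 FPKM, so its fall narrowed to an effect of -0.70 at 6 h, against -2.17 at 3 h. LSU2, induced by low sulfur, had effects of -0.75 and -2.15, and SDI1, a sulfur deficiency gene outside these 12, of -1.03 and -2.41. LSU1, of the same family as LSU2, had effects of -1.67 at 6 h and -1.29 at 3 h.

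In the other genes of the positive group the effect at 3 h had either sign. The lipid transfer protein AT2G37870 had an ABA level of 789 FPKM at 6 h and 709 FPKM at 3 h, while its mock level was 1.65 FPKM at 6 h and 6.88 FPKM at 3 h. For AT3G02480, outside the 12, the mock level was 49.96 FPKM at 6 h and 116 FPKM at 3 h. The glycine-rich protein AT2G05510 had 248 FPKM under ABA and 13.1 FPKM in mock at 6 h, against 157 and 23.9 FPKM at 3 h. AT5G48430, an aspartyl protease, stayed near 0.5 FPKM under ABA (0.521 FPKM at 6 h and 0.500 FPKM at 3 h), and its mock level was 13.4 FPKM at 6 h and 47.9 FPKM at 3 h. AT4G36850, a PQ-loop membrane protein, had the largest positive change among the named genes, with effects of -1.71 and -3.71. AT3G17998, which the annotation used here does not list, had 195 FPKM under ABA and 68.2 FPKM in mock at 6 h, against 53.7 and 58.2 FPKM at 3 h. Its locus number is close to that of XPL1 (AT3G18000), described further on, and whether the 2 entries share reads cannot be told. AT4G36791, an uncharacterized gene, was listed at 0 in mock at both times, with 16.1 FPKM under ABA at 6 h and 4.54 FPKM at 3 h.

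Some genes with negative changes, CML37 and AT1G71520 among them, had been above mock at 3 h and lay below it at 6 h. AT3G46080, BCB, FLOT1, AT5G25260 and AT3G47480 were already below mock at 3 h (effects -1.78 to -1.05) and lay farther below at 6 h. CML37, a calmodulin-like calcium sensor induced by wounding and drought, had 1.13 FPKM under ABA and 9.13 FPKM in mock at 6 h, against 3.42 and 0.604 FPKM at 3 h. Its effects of -2.25 and 1.46 gave a change of -3.71, and the ABA and mock pools moved in opposite directions. It is named for its opposite calls, since its highest pool lay under the 10 FPKM asked of the 12 largest changes. AT1G71520, an AP2-type DNA-binding protein, had 3.33 FPKM under ABA and 16.7 FPKM in mock at 6 h, and 12.2 and 6.07 FPKM at 3 h. AT3G46080, a C2H2 zinc finger protein, had effects of -3.53 at 6 h and -1.24 at 3 h. BCB, a blue copper protein of stress and lignin formation, had 5.27 FPKM under ABA and 56.3 FPKM in mock at 6 h, against 13.5 and 28.9 FPKM at 3 h. From 9 h on, BCB stayed between 2.97 and 4.05 FPKM under ABA and between 42.4 and 67.5 FPKM in mock. FLOT1, a flotillin of membrane microdomains, had 0.298 FPKM under ABA and 11.0 FPKM in mock at 6 h, against 0.724 and 3.04 FPKM at 3 h. Its neighbour AT5G25260, which the authors' deposited table did not call at 6 h, had 0.0641 FPKM under ABA and 14.4 FPKM in mock at 6 h, against 0.115 and 2.82 FPKM at 3 h. AT3G47480, an EF-hand calcium-binding protein, was at 0.680 FPKM under ABA at 6 h and 0.607 FPKM at 3 h. Its mock level was 21.2 FPKM at 6 h, 2.98 FPKM at 3 h and 57.7 FPKM at 9 h.

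Other negative changes were 3 h effects above mock that were smaller at 6 h. AT4G33905, a peroxisomal membrane protein of the PMP22 family, had 35.1 FPKM under ABA and 1.78 FPKM in mock at 6 h, against 121 and 1.21 FPKM at 3 h. Its effects were 3.70 at 6 h and 5.79 at 3 h, and its ABA level was 5.21 FPKM at 24 h. AT4G39670, a glycolipid transfer protein, had 37.2 FPKM under ABA and 32.7 FPKM in mock at 6 h, against 63.2 and 10.2 FPKM at 3 h, and it was no longer called at 6 h (calls of the authors' deposited table). XPL1, a methyltransferase that makes phosphocholine, had effects of 3.80 at 3 h, 1.65 at 6 h, 3.98 at 9 h and -2.39 at 24 h, and only that at 3 h was called (calls of the authors' deposited table). In the ABA pools XPL1 had 178 FPKM at 3 h and 102 FPKM at 6 h, while AT3G17998, close to it by locus number, had 53.7 and 195 FPKM. The single values of both are therefore uncertain. The short gene AT3G07273 was listed at 0 in 3 of the 4 pools, with 12.6 FPKM in mock at 6 h.

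**Figure D3:**
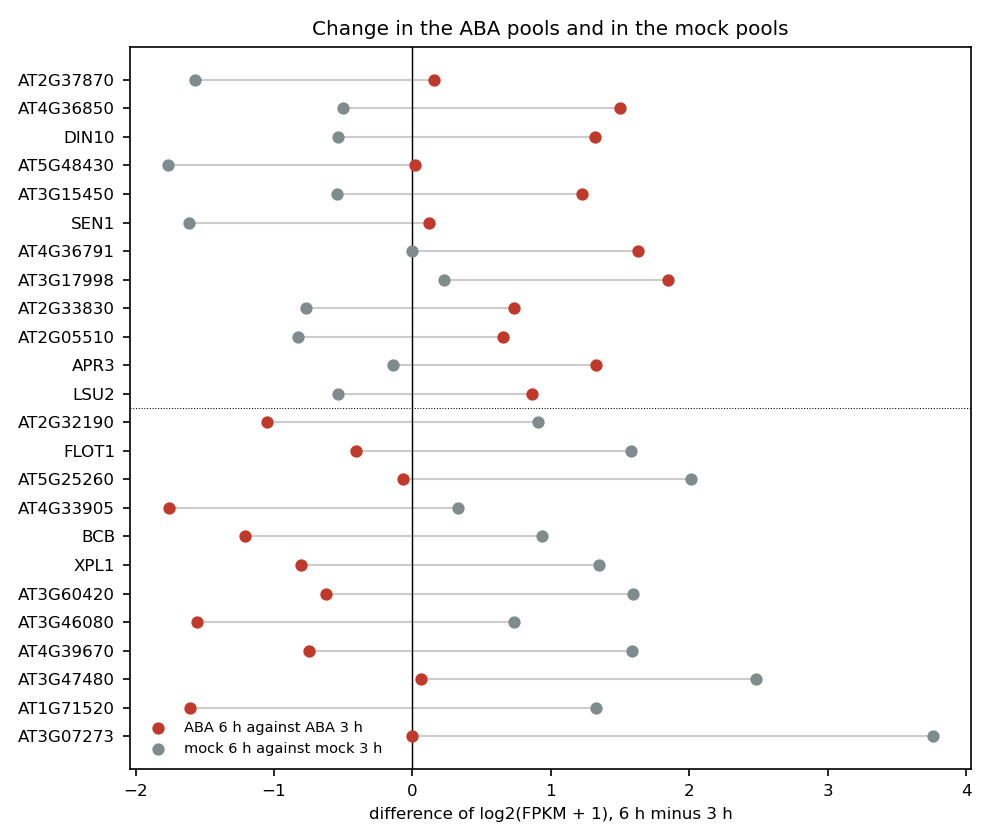
Difference of log2(FPKM + 1) at 6 h minus 3 h in the ABA pools (red) and the mock pools (grey) for the 12 largest positive (above the dotted line) and 12 largest negative changes of effect. For AT2G37870, SEN1 and AT3G47480 the ABA point lies near 0 and the mock point away from it, whereas for DIN10, APR3 and AT4G33905 the ABA point lies farther from 0.

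**Figure D4:**
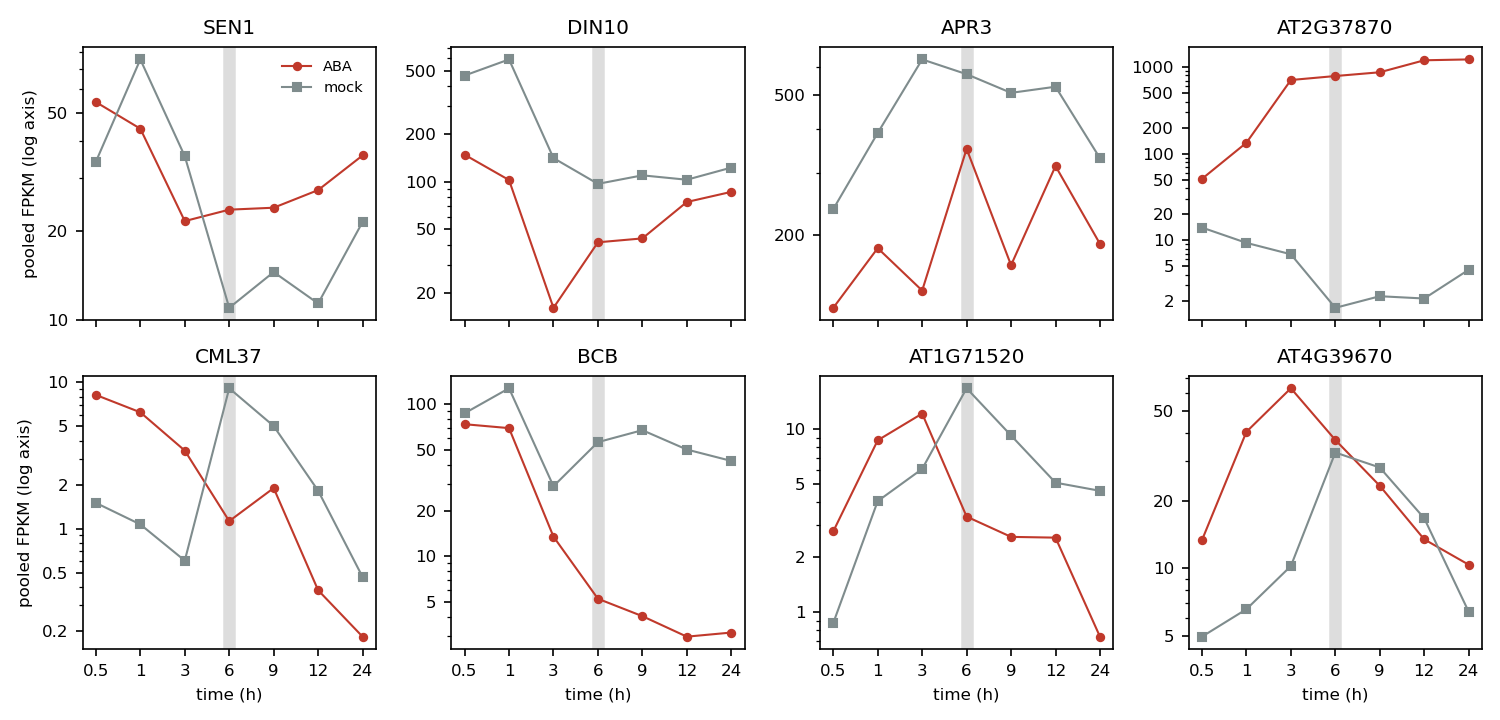
Pooled FPKM (log axes) over the 7 times for 8 genes with changed effects, ABA in red and mock in grey, with 6 h shaded. SEN1, CML37, AT1G71520 and AT4G39670 come close or cross between 3 h and 6 h, while DIN10, APR3, BCB and AT2G37870 have the same order of ABA and mock at 6 h as at 3 h.

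Of the 15 genes called in opposite directions by the authors' deposited table, 12 are named by rule. Beside SEN1, those lower at 3 h and higher at 6 h included 2 seed genes, M17 and CRU3. M17, a LEA protein, had 2.13 FPKM under ABA and 0.593 FPKM in mock at 6 h, against 2.23 and 4.23 FPKM at 3 h. CRU3, a seed storage cruciferin, had 2.87 FPKM under ABA and 0.449 FPKM in mock at 6 h, against 5.33 and 8.33 FPKM at 3 h. The sign of both depended on the mock pool: with a mock averaged over 3, 6 and 9 h the 6 h effect was -0.11 for M17 and -0.29 for CRU3. AT2G26695, a zinc finger protein, SRG3, a senescence-related gene, and ASN1, an asparagine synthetase of starved cells, had 6 h effects of 0.95, 0.52 and 0.64. Beside CML37 and AT1G71520, the other direction included UGT76B1, which glucosylates the immune signal isoleucic acid and had 40.1 FPKM under ABA and 66.2 FPKM in mock at 6 h, against 55.7 and 27.9 FPKM at 3 h. PMZ, an AN1 zinc finger stress protein, AT2G32190, a cysteine-rich transmembrane protein, and AT3G60420, of the phosphoglycerate mutase family, had 6 h effects of -0.50, -0.99 and -1.71. Their 3 h effects were 0.68, 0.97 and 0.50.

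The core of the ABA pathway had as many calls at 6 h as at 3 h in all lists but that of the kinases and factors. Of 9 receptor genes that passed the filter, 6 were called lower at each time (calls of the authors' deposited table), with a median effect of -1.07 at 6 h and -1.55 at 3 h. The median of the single receptors' changes was -0.014, and none changed by 1 or more. PYL6 had the largest difference, with 0.0732 FPKM under ABA and 68.8 FPKM in mock, without a call at 6 h (calls of the authors' deposited table). The receptor gene PYR1 had 31.8 FPKM under ABA and 157 FPKM in mock. PYL7 and PYL9 both had effects of -0.05. Of 9 clade A PP2C genes, 7 were called higher at both times (calls of the authors' deposited table), with medians of 3.61 at 6 h and 4.40 at 3 h. HAI1 had 176 FPKM under ABA and 1.17 FPKM in mock at 6 h, against 292 and 0.692 FPKM at 3 h. All 9 PP2C effects were smaller at 6 h, by 0.36 in PP2CA to 1.09 in HAI1, and all 9 ABA levels were lower. Of 10 SnRK2, ABF and ABI genes, 9 were called higher at 6 h and 8 at 3 h (calls of the authors' deposited table). ABF3 had 83.8 FPKM under ABA and 19.1 FPKM in mock, and the guard cell kinase gene SNRK2.6 66.0 FPKM under ABA and 24.9 FPKM in mock. The 4 AFP genes, whose products bind ABI5 and dampen the response, were called higher at both times (calls of the authors' deposited table), led by AFP1 with 224 FPKM under ABA and 4.29 FPKM in mock. Over all genes the median effect was 0.01 at 6 h and 0.03 at 3 h.

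Most genes that make and break down ABA rose. Of 11 that passed the filter, 8 were called higher at both times (calls of the authors' deposited table), with medians of 1.35 at 6 h and 1.71 at 3 h. NCED3, the rate-limiting step of synthesis under drought, had 14.1 FPKM under ABA and 0.597 FPKM in mock. CYP707A1, a hydroxylase that inactivates ABA, had 152 FPKM under ABA and 8.81 FPKM in mock. ABA2 and ABA3, other synthesis genes, had effects of 0.18 and 0.03.

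LEA, dehydrin and cold-regulated genes stood highest of all lists at both times. Of 22 members, 20 were called higher at 6 h and 22 at 3 h (calls of the authors' deposited table), with medians of 5.11 and 5.66. They summed to 49659 FPKM under ABA and 1330 FPKM in mock at 6 h. KIN2 alone had 11444 FPKM under ABA and 315 FPKM in mock. The 2 without a call at 6 h (calls of the authors' deposited table) were EM6, with 139 FPKM under ABA and 0.339 FPKM in mock, and ECP63, with 6.57 and 0.0389 FPKM. The dehydrin gene XERO1 was higher relative to mock at 6 h (2.94) than at 3 h (2.11), and COR15B lower (6.29 and 7.54). Of 12 seed storage and oil body genes, 10 were called higher at 6 h and 7 higher with 1 lower at 3 h (calls of the authors' deposited table). Their median effect was 1.04 at 6 h and 0.65 at 3 h. The median of their changes, 0.26, was 0.045 with a pseudocount of 5. With a mock averaged over 3, 6 and 9 h, the same for both times, it was -0.18, which is the ABA change alone. OLEO2, an oleosin that coats oil bodies, had 60.8 FPKM under ABA and 0.587 FPKM in mock, and PER1, a seed peroxiredoxin, 25.05 and 0.790 FPKM. Both mock levels were lower at 6 h than at 3 h, when OLEO2 had 1.90 and PER1 2.47 FPKM.

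Barrier lipids followed. Of 17 cuticular wax genes, 15 were called higher and 1 lower at 6 h (calls of the authors' deposited table); the median was 1.49, against 1.67 at 3 h. The alkane-forming CER1 had 211 FPKM under ABA and 8.69 FPKM in mock, and the wax regulator MYB96 40.3 FPKM under ABA and 6.28 FPKM in mock. The wax ester synthase gene WSD1 had an effect of 3.19 at 6 h and 2.19 at 3 h. MYB30, another regulator of very-long-chain lipids, fell, with 12.6 FPKM under ABA and 30.8 FPKM in mock. Of 16 suberin genes, 15 were called higher at both times (calls of the authors' deposited table), but the median was 1.87 at 6 h and 2.62 at 3 h. GPAT7, an acyltransferase of suberin synthesis, had 10.9 FPKM under ABA and 0.899 FPKM in mock at 6 h, against 37.0 and 0.792 FPKM at 3 h. The suberin regulator MYB41 had effects of 2.83 and 4.12, and the feruloyl transferase gene ASFT of 3.00 and 3.59. In all 3 genes the ABA level, and not the mock level, held most of the change.

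Stress transcription factors had smaller median effects at 6 h than at 3 h. Of 25 HD-Zip, NAC and MYB genes, 15 were called higher and 3 lower at 6 h (calls of the authors' deposited table); the median was 1.55, against 17 higher, 2 lower and a median of 2.099 at 3 h. HB-7, a homeodomain factor that curbs growth in drought, had 379 FPKM under ABA and 4.61 FPKM in mock. NAC019 and RD26, NAC factors of drought and senescence, had effects of 4.12 and 3.92. NAP, which drives leaf senescence, had 7.58 FPKM under ABA and 2.34 FPKM in mock at 6 h, against 22.5 and 2.01 FPKM at 3 h. NAC055 lost its call at 6 h (calls of the authors' deposited table), with effects of 0.50 and 1.76. Of 15 CBF, DREB2 and RAV genes, 6 were called higher and 4 lower at 6 h (calls of the authors' deposited table), against 9 and 2 at 3 h. Over all genes, the shares called higher and lower were 22.2% and 21.4% at 6 h, and 24.8% and 20.1% at 3 h. RAP2.6 had 199 FPKM under ABA and 37.9 FPKM in mock. DREB2C was new among the lower genes, with 4.37 FPKM under ABA and 13.4 FPKM in mock at 6 h, against 6.99 and 6.94 FPKM at 3 h. ABR1, a repressor of ABA responses, was the other, with effects of -1.81 and -0.37.

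Salicylate and systemic defence genes were the list whose calls changed most. Of 23 members, 14 were called lower and 2 higher at 6 h (calls of the authors' deposited table), against 6 lower and 5 higher at 3 h. Over all genes, 21.4% were called lower and 22.2% higher at 6 h, and 20.1% and 24.8% at 3 h. The median effect was -0.71 at 6 h and -0.30 at 3 h. With a pseudocount of 5 the 6 h median was -0.30. The median change of -0.48 was -0.15 with that pseudocount and -0.70 with a filter of 5 FPKM. With a mock averaged over 3, 6 and 9 h, the same for both times, it was -0.07, which is the ABA change alone. The change lay on the mock side, where the members' median level was higher by 0.49 on the log2 scale at 6 h than at 3 h, while the ABA side moved by -0.07. PBS3, which conjugates isochorismate on the way to salicylate, had 0.121 FPKM under ABA and 6.29 FPKM in mock at 6 h, against 0.269 and 0.399 FPKM at 3 h. ICS1, the enzyme that makes isochorismate, had 3.42 FPKM under ABA and 15.6 FPKM in mock at 6 h, against 4.63 and 8.28 FPKM at 3 h. CBP60G, which activates ICS1, had 0.264 FPKM under ABA and 9.83 FPKM in mock at 6 h, against 0.638 and 4.93 FPKM at 3 h. WRKY46 and WRKY70, defence regulators, had 6 h effects of -1.99 and -1.62 and 3 h effects of -0.25 and -0.73. SARD4, which helps to make pipecolic acid, rose at both times, with 148 FPKM under ABA and 60.8 FPKM in mock at 6 h. PR1, the usual salicylate marker, was listed at 0 under ABA and at 0.661 FPKM in mock.

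Immune receptor and signalling genes had 18 of 33 members called lower at 6 h and 17 at 3 h (calls of the authors' deposited table), with medians of -0.87 and -0.50. FRK1, a flagellin-induced kinase, had 0.654 FPKM under ABA and 13.7 FPKM in mock. The oxidase gene RBOHD had 3.89 FPKM under ABA and 16.4 FPKM in mock. The flagellin receptor gene FLS2 (AT5G46330) had a smaller fall at 6 h, with effects of -1.48 and -2.42. In contrast PAD3, which makes the last step of camalexin synthesis, had effects of -1.65 and -0.80. Touch and calmodulin-like genes had 8 of 13 called lower and 1 higher at 6 h (calls of the authors' deposited table), against 5 and 4 at 3 h. Both lists are to be read beside 21.4% lower and 22.2% higher over all genes at 6 h, and 20.1% and 24.8% at 3 h. CML38, CML40 and CML41, calcium sensors of stress, had 6 h effects of -3.01, -2.90 and -2.91 and 3 h effects of -1.59, -1.46 and -1.14. Their mock levels were the ones that differed, with 16.8, 9.12 and 13.0 FPKM at 6 h and 7.87, 2.90 and 3.39 FPKM at 3 h. Under ABA all 3 stayed below 2 FPKM at both times. TCH3 differed on the ABA side, with 6.54 FPKM at 6 h and 13.6 FPKM at 3 h beside mock levels of 198 and 197 FPKM.

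Ethylene genes had 14 of 25 called lower and 2 higher at 6 h (calls of the authors' deposited table), against 9 and 4 at 3 h, with medians of -0.56 and -0.11. ACS6, an enzyme of ethylene synthesis, was newly lower, with 9.92 FPKM under ABA and 25.6 FPKM in mock at 6 h, against 16.5 and 16.0 FPKM at 3 h. The factor gene ERF6 had effects of -2.75 and -1.54, and ERF1 of -0.97 and -0.02. ERF4, a repressor, remained higher, with 74.8 FPKM under ABA and 32.2 FPKM in mock. Redox genes had 11 of 27 called lower and 5 higher at 6 h (calls of the authors' deposited table), against 6 and 8 at 3 h. GSTU4, a glutathione transferase, had 54.2 FPKM under ABA and 33.3 FPKM in mock at 6 h, against 60.8 and 9.96 FPKM at 3 h. GSTU25, of the same family, had 35.1 FPKM under ABA and 99.2 FPKM in mock at 6 h, an effect of -1.47, against -0.24 at 3 h. Of 34 jasmonate genes, 9 were called lower and 8 higher at 6 h (calls of the authors' deposited table), against 6 and 12 at 3 h. These shares at 6 h are near those over all genes, 21.4% lower and 22.2% higher. LOX2, of jasmonate synthesis, had 118 FPKM under ABA and 114 FPKM in mock at 6 h, against 189 and 76.5 FPKM at 3 h. JAZ1, a repressor of the pathway, had effects of 0.01 and 0.86. The storage protein gene VSP2 had effects of 3.94 and 3.82.

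Nitrate, phosphate and sulfate genes held more higher calls at 6 h than at 3 h. Of 31 members, 9 were called higher and 9 lower at 6 h (calls of the authors' deposited table), against 4 and 12 at 3 h. Over all genes, the authors' deposited table called 22.2% higher and 21.4% lower at 6 h, and 24.8% and 20.1% at 3 h. ASN2, an asparagine synthetase, had 508 FPKM under ABA and 226 FPKM in mock at 6 h, against 212 and 193 FPKM at 3 h. The phosphate transporter gene PHT1;4 had 19.6 FPKM under ABA and 14.5 FPKM in mock at 6 h, against 11.5 and 20.5 FPKM at 3 h. The phosphatase gene PAP17 had effects of 3.38 and 3.11. A change of effect of at least 1 was found in 4 of the 31, namely ASN1, ASN2, PHT1;4 and SDI1. Auxin genes, to be read beside the same shares, had 11 of 37 called lower and 5 higher at 6 h (calls of the authors' deposited table), against 9 and 9 at 3 h. GH3.3, which conjugates auxin to amino acids, had 20.0 FPKM under ABA and 7.89 FPKM in mock at 6 h, against 36.9 and 6.95 FPKM at 3 h, and the growth gene SAUR15 had effects of -2.32 and -1.26.

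Growth and photosynthesis genes had near-equal medians at both times, each against its own mock. All 13 ribosome biogenesis genes were called lower at both times (calls of the authors' deposited table), with medians of -1.12 at 6 h and -1.09 at 3 h. NOP56, of the snoRNA-guided methylation complex, had 80.9 FPKM under ABA and 238 FPKM in mock. Nucleolin NUC1 had 291 FPKM under ABA and 609.6 FPKM in mock. In both, ABA and mock levels were each higher at 6 h than at 3 h. Rubisco and Calvin cycle genes had 17 of 21 called lower at both times (calls of the authors' deposited table), with medians of -0.74 and -0.70. With a mock averaged over 3, 6 and 9 h, the median change from 3 h was -0.60 for these genes (-0.05 against their own mock) and 0.27 for the ribosome biogenesis genes (-0.06). That mock is the same for both times, so -0.60 and 0.27 are the changes of the ABA pools alone. In the mock pools the median changes were -0.47 and 0.31. RCA, Rubisco activase, had 1363 FPKM under ABA and 2837 FPKM in mock. RCA also serves as a green leaf marker, and the 6 markers of that list moved with these genes, with a median of -0.70 at 6 h and -0.59 at 3 h. Their part in the result was not tested. Cell cycle and replication genes had 19 of 44 called lower and 2 higher at 6 h (calls of the authors' deposited table), against 16 and 6 at 3 h. The shares over all genes were 21.4% lower and 22.2% higher at 6 h, and 20.1% and 24.8% at 3 h. RNR1, a subunit of ribonucleotide reductase, had 15.9 FPKM under ABA and 41.4 FPKM in mock. Autophagy genes had 15 of 20 called higher at 6 h and 14 at 3 h (calls of the authors' deposited table), none lower at either, with medians of 0.62 and 0.67. Of these, ATG18H had 17.7 FPKM under ABA and 6.94 FPKM in mock.

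**Figure D5:**
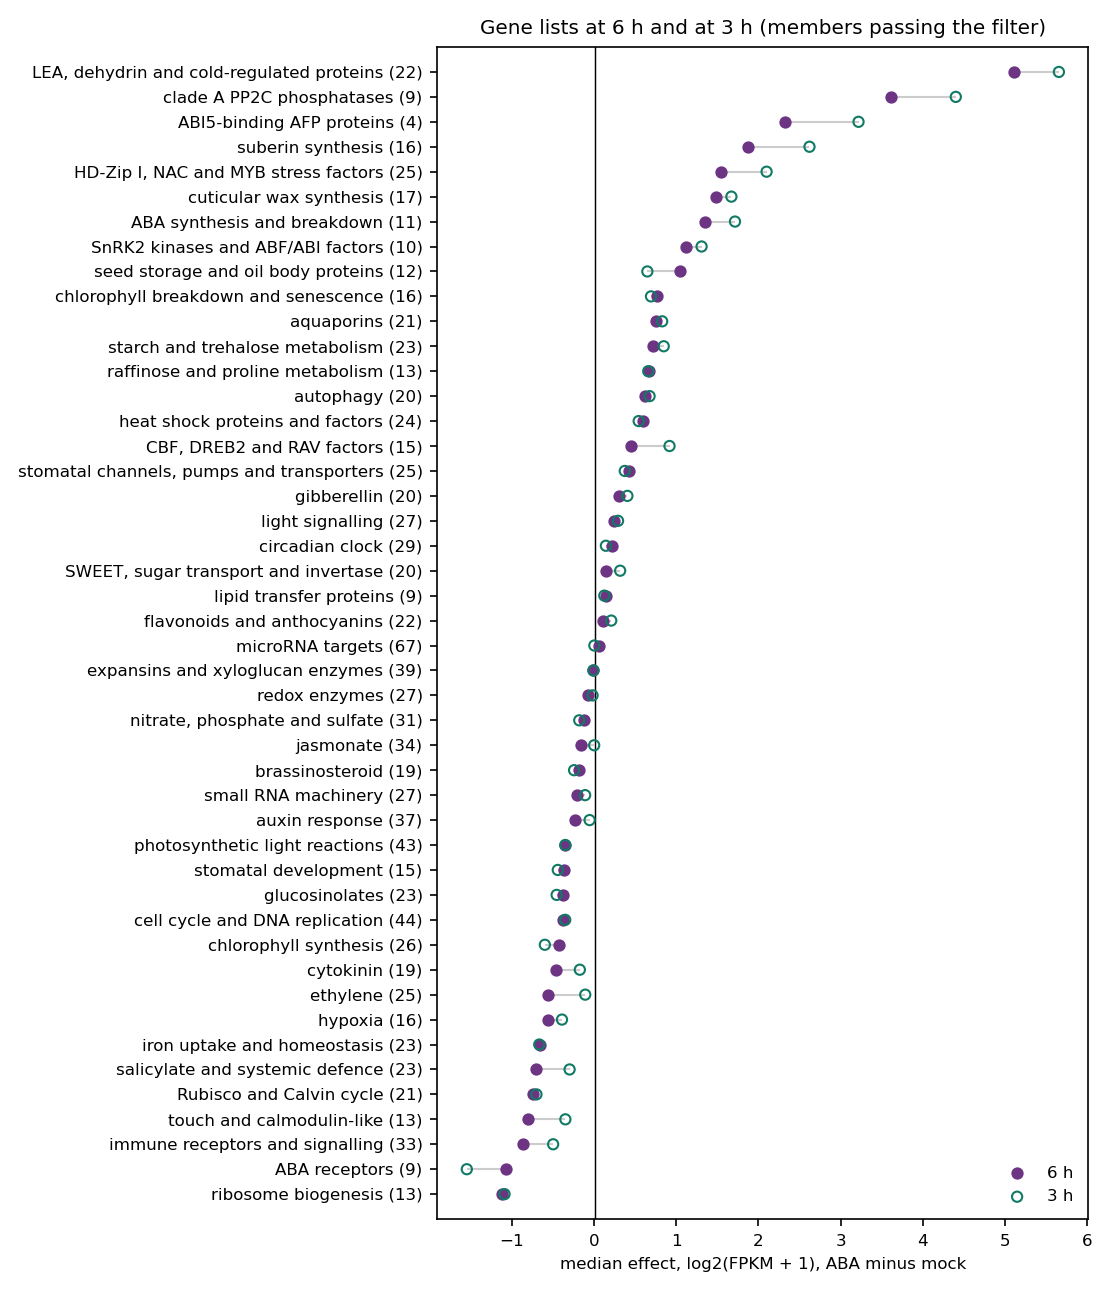
Median effect of 46 gene lists at 6 h (filled) and at 3 h (open), on the log2(FPKM + 1) scale, ABA minus mock, with the number of members that passed the filter in brackets and a line at the median of all genes. The PP2C, AFP, suberin and transcription factor medians lie nearer to 0 at 6 h, and the salicylate, immune, touch and ethylene lists lie lower at 6 h than at 3 h.

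Whether 6 h stood apart from the rest of the course was tested with limma on the 7 effects of each gene, with 6 h set against the mean of the other 6 times. With Benjamini-Hochberg adjustment over 20034 genes and a threshold of 0.05, no gene was above (0%) and none below (0%). At an unadjusted p under 0.05 there were 206 genes, 62 above and 144 below. That count was 682 with 3 h left out and 571 without the filter. Each of these counts is a smaller share of the genes tested than the 0.05 that would pass without any difference. The error of this fit is the spread of the effect over the other times, with 5 residual degrees of freedom, and that spread includes real change over time. Measured by size alone, the effect was largest at 6 h for 2469 genes that the authors' deposited table called at that time, a figure that was 899, 1439 and 3974 at 0.5, 1 and 3 h and 843, 2014 and 2844 at 9, 12 and 24 h.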

How the data were processed

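RNA of 28 seedling libraries was deposited as 1 table of 14 pooled columns, each standing for the 2 libraries of a group. The values were taken as FPKM made by the authors: the header names no unit, and the unit was inferred from decimals and unequal column sums. FastQC, STAR and TAIR10 are named, per the submitters' processing notes, without versions. The sources used here name neither the quantifier, nor the way the 2 libraries were combined, nor the test behind the yes or no calls. The deposited log2 column matched the ratio of the pooled values to within 0.00262. Calls of the authors' deposited table were copied, and their direction was taken from the effect.

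Effects were log2(FPKM + 1), ABA minus mock, for 20034 entries with at least 1 FPKM in at least 2 of 14 pools. limma 3.58.1 in R 4.3.3 (eBayes with a trend) set the 6 h effect against those of the other 6 times, with Benjamini-Hochberg adjustment. The fit was also run on simulated effects with independent noise, scaled down from the real spread. These had no change over time except shifts planted at 6 h. That run therefore cannot tell how well the fit finds a 6 h difference in these data. Named were the 12 largest rises and 12 largest falls among called genes with a mean of at least 5 FPKM, the 12 largest changes from 3 h in each direction among genes called at either time with at least 10 FPKM in 1 pool, and 6 genes called in opposite directions each way. In each list, the called members with the largest effects and those needed for its roles were named. The members and the 49 lists were chosen with earlier results of these data known. Loci were matched by locus tag to RefSeq TAIR10.1, from which promoters were read. The alternatives were other pseudocounts, filters, a rescaling of the pools, a mock averaged over 3 times, other fits of limma and other numbers of promoters.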

Additional observations from a re-analysis of the deposited data

How the results depend on the processing

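No paired analysis was possible because the deposited columns are pools that carry no replicate number, and for the same reason no replicate could be left out. Counts depended on the pseudocount. With 5 in place of 1, 1147 genes were at least 2-fold higher and 677 at least 2-fold lower at 6 h, against 1832 and 1446. The number of genes whose effect differed from that at 3 h by at least 1 was 123, against 323 with a pseudocount of 0.1, 37 with 5, and 46 with the mock averaged over 3, 6 and 9 h. For a difference of -1 or below it was 323, against 687, 96 and 141. With limma 0 genes stood apart at 6 h, against 1 with a pseudocount of 0.1 and 17 without a filter. The median 6 h effect of the PP2C list was 4.85 with a pseudocount of 0.1 and 2.90 with 5, that of seed storage genes 1.97 with 0.1, that of HD-Zip, NAC and MYB factors 0.83 with 5, and that of touch genes -1.95 with a filter of 5 FPKM. With the averaged mock, the median 6 h minus 3 h effect was -0.10 for touch genes, -0.73 for green leaf markers, -0.60 for Rubisco and Calvin cycle genes and -0.56 for light reaction genes (-0.05 and -0.07 with each time's own mock). That setting also turned the direction of the change from 3 h in AT4G12500 (0.25), AT3G47480 (0.063), M17 (-0.047), CRU3 (-0.71) and ASN1 (-0.46), and of the 6 h effect in M17 (-0.11) and CRU3 (-0.29). It removes, by construction, the difference between the mock pools of 3 h and 6 h. A change from 3 h under that setting is therefore the change of the ABA pools alone. There being no replicates, values were compared by size, each value once under each of its alternative settings. Among these comparisons, 581 of list medians moved by less than a factor of 1.5. For named genes, 553 comparisons moved by less and 112 by more. These figures for named genes also include comparisons of the counts of genes whose effect changed from 3 h by at least 1 in either direction. All 24 comparisons of motif shares stayed within their counting intervals. A median or change near 0 can turn its sign within that factor, as the median change of the seed storage genes did (-0.18 with the averaged mock). With 1 pool per group, low genes are the least certain.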

Other observations

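Of 23 glucosinolate genes, 11 were called lower and 2 higher (calls of the authors' deposited table), with a median effect of -0.37. BCAT4, which starts the elongation of methionine side chains, had 8.69 FPKM under ABA and 87.4 FPKM in mock. CYP81F2, which modifies indole glucosinolates, had 0.427 FPKM under ABA and 14.9 FPKM in mock. Of 22 flavonoid genes, 9 were called higher and 6 lower (calls of the authors' deposited table), against 22.2% higher and 21.4% lower over all genes. The anthocyanin regulator MYB75 had 33.3 FPKM under ABA and 2.47 FPKM in mock, and DFR, an enzyme of anthocyanin synthesis, 67.1 FPKM under ABA and 11.8 FPKM in mock. MYB111, a regulator of flavonols, had 2.41 FPKM under ABA and 8.83 FPKM in mock.

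Of 39 expansin and xyloglucan enzyme genes, 12 were called higher and 11 lower (calls of the authors' deposited table), against 22.2% higher and 21.4% lower over all genes. EXPA16 had 223 FPKM under ABA and 11.3 FPKM in mock, whereas XTH31 had 26.8 FPKM under ABA and 424 FPKM in mock. Among heat shock genes, 10 of 24 were called higher and 6 lower (calls of the authors' deposited table), beside the same shares over all genes. The factor gene HSFA6B had 20.5 FPKM under ABA and 0.889 FPKM in mock. Of 20 sugar transport and invertase genes, 8 were called higher and 6 lower (calls of the authors' deposited table), again beside those shares over all genes. The sugar exporter gene SWEET4 had 96.2 FPKM under ABA and 3.82 FPKM in mock, and the sucrose carrier gene SUC1 15.1 FPKM under ABA and 104 FPKM in mock. IRT1, the iron uptake transporter of the root, had 1.97 FPKM under ABA and 38.3 FPKM in mock, in a list of 23 with 8 called higher and 13 lower (calls of the authors' deposited table).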
